A study of Homo sapiens with 12 samples.

Results

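Long intergenic noncoding RNA (lincRNA) genes make transcripts of some length from stretches between protein-coding genes, without a long reading frame. The genes described here are the 231 that the deposited count table types as lincRNA and that reached a mean of 3 CPM (counts per 1000000 counts of the library) in at least 1 of 6 groups of cells. The known hosts of small nucleolar RNAs (names beginning SNHG, GAS5 and ZFAS1) were set aside. The table holds 58233 genes, of which 7508 are lincRNA genes outside those hosts and 3659 of these had at least 1 count. The 231 genes were chosen by their measured levels in all 6 groups, so these levels, and counts of how many differ between groups, describe them and test nothing. A gene that reached the floor in treated or in untreated groups alone was bound to differ between them, and p-values given below for such genes are to be read as part of the description. Just outside the floor lay AL355338.1, LINC01268 and C1orf220, with highest group means of 2.99, 2.996 and 2.997 CPM. Just inside lay TRAM2-AS1, AC010536.1 and LINC00886, at 3.06, 3.07 and 3.09 CPM. Of the 231 genes, 2 are included in the counts of genes called but not reported by value, and they are left out of the summed levels.

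Most lincRNAs are transcribed by RNA polymerase II, capped and often spliced like messages, and many stay in the nucleus. The kinase CDK9, part of P-TEFb, lets paused polymerase II pass into elongation, and short-lived transcripts are known to fall soon after it is inhibited. Some lincRNAs hold microRNAs in their introns or exons, some build nuclear bodies, and many carry only a clone name because nothing is known of what they do.

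Poly(A)+ RNA was sequenced from OCI-LY3 and VAL, which are established human lines of diffuse large B-cell lymphoma. Each line was collected after 0 h (untreated), 3 h and 6 h with 300 nM AZ5576, a selective CDK9 inhibitor, with 2 libraries in each of the 6 groups and 23175082 to 39715536 counts in a library. No other agent or genotype is given for any group. The 0 h cells are the controls that the labels give, although the series text mentions vehicle, so each change given below includes time in culture and vehicle. Nothing in the labels says that libraries of a group came from separate cultures, so a p-value covers just the spread of these libraries, which may be technical. Each line had a lane of its own, so the line and the lane cannot be told apart. Those of VAL that bear the number 1 are marked as resubmitted. Library preparation did not keep strand.

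B-cell markers were high in every library, with MS4A1 at 718 to 1040 CPM. Among markers of other cells, T cell genes summed to at most 1.06 CPM and erythroid genes to at most 0.0431 CPM. The 3 myeloid markers summed to 0.253 to 0.327 CPM at 0 h, 0.627 to 1.77 CPM at 3 h and 8.2 to 13.5 CPM at 6 h, mostly from MPO and CD14, with MPO at 0 in all untreated libraries. COL1A1 stood at 32.1 to 90.9 CPM in OCI-LY3 and 0.118 to 1.14 CPM in VAL. The part of these genes in the results was not tested, and in bulk RNA fewer cells of a type and less RNA per cell cannot be told apart. The second VAL library of 3 h stands apart in one respect, since it holds a trace of RNAs that are otherwise close to absent from VAL. It had 12 counts of CRNDE, 4 of MIR99AHG and 5 of FAM30A, against 0 counts of each in the first 3 h library and at most 1 in any untreated VAL library. All of these RNAs were abundant in OCI-LY3, with 516, 322 and 282 counts in its second 3 h library. The source of the trace was not tested, and it is not read as a rise in VAL.

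The promoters of 7 of these genes are shown because the results turn on them. NORAD, LINC00847, LINC00265 and MIR3142HG fell in both lines, whereas the RNAs of C1orf132, LINC01021 and MALAT1 rose in both lines under the default scaling. Each runs from 250 bases before to 50 bases after a gene start in RefSeq, build GRCh38.p14, with motif matches in capitals. The RefSeq starts of C1orf132, MIR3142HG and MALAT1 lie inside the spans that GENCODE gives these genes, so these promoters are not at the GENCODE starts.
NORAD, chr20:36050911-36051210, minus strand: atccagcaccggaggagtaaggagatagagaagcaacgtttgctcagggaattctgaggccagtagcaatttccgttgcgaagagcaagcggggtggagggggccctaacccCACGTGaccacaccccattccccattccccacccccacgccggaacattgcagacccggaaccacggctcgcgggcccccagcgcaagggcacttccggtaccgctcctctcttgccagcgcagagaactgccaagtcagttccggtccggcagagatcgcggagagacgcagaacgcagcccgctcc
LINC00847, chr5:180830707-180831006, plus strand: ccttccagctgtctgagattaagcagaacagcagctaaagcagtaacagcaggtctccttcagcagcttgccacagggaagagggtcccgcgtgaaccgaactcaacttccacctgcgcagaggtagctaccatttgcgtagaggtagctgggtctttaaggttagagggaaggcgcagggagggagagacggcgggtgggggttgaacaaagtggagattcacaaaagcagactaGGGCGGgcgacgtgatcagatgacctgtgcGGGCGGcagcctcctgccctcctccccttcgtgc
LINC00265, chr7:39733318-39733617, plus strand: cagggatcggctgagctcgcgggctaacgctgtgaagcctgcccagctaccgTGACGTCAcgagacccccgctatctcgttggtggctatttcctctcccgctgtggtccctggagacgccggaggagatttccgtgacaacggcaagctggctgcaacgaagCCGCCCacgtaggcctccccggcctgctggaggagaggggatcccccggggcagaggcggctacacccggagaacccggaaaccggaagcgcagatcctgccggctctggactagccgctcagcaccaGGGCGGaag
MIR3142HG, chr5:160468001-160468300, plus strand: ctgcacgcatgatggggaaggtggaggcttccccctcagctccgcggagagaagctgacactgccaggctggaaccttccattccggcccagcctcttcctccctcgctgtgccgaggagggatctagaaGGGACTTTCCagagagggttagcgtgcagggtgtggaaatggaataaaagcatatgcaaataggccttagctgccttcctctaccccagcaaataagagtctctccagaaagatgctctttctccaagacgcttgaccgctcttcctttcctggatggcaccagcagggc
C1orf132, chr1:207822654-207822953, minus strand: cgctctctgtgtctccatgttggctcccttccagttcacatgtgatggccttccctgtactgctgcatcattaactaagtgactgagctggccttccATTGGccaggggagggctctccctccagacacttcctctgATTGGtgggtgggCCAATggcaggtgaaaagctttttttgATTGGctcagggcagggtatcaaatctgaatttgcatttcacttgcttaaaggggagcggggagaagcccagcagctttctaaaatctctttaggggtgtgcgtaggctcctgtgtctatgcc
LINC01021, chr5:27472042-27472341, plus strand: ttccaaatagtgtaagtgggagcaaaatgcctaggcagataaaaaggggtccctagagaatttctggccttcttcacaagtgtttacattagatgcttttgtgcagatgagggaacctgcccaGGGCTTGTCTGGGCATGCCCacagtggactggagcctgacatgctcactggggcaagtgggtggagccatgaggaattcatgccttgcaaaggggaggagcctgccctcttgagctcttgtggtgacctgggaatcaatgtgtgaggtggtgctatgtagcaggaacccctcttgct
MALAT1, chr11:65497488-65497787, plus strand: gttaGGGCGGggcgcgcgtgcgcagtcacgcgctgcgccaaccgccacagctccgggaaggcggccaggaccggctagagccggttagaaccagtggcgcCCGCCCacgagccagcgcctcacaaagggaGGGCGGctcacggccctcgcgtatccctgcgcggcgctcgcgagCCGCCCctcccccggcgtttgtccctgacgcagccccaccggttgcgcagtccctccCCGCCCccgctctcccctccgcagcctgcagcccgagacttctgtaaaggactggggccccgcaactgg
The capitals mark CACGTG in NORAD, GGGCGG on either strand in LINC00847, LINC00265 and MALAT1, TGACGTCA in LINC00265, a form of the NF-κB site (GGG, any 2 bases, TTTCC) in MIR3142HG, CCAAT on either strand in C1orf132 and 2 adjoining half-sites of p53 in LINC01021. RefSeq names C1orf132 as MIR29B2CHG and LINC01021 as PURPL. A RefSeq promoter was found for 86 of 229 genes looked up, 24 of them under another symbol. On both strands GGGCGG was found in 52.3% of the 86 and in 44.9% of all 34943 promoters of the table, CCAAT in 40.7% and 34.6%, TATAAA in 9.3% and 11.6%, and CACGTG in 6.98% and 7.23%. TGANTCA was found in 9.3% of the 86 and 7.72% of all, TTCNNNGAA in 10.5% and 7.66%, TGACGTCA in 1.16% and 1.84%, the NF-κB form in 3.49% and 1.91%, and the p53 half-site in 6.98% and 6.64%. Among the 15 matched genes that were higher at 6 h in both lines, GGGCGG was found in 33.3%, and among the 20 that were lower in both lines in 60.0%. For CCAAT these shares were 46.7% and 25.0%, for CACGTG 6.67% and 15.0%, and for TTCNNNGAA 13.3% and 5.0%. For TGANTCA they were 0.0% and 10.0%, for the p53 half-site 6.67% and 10.0%, and for TATAAA 0.0% in both. For TGACGTCA and the NF-κB form they were each 0.0% and 5.0%. These sets are small, and the shares were not tested. A match says only that the letters are there.

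The spans of 14 of the genes hold 38 mature microRNAs from 22 microRNA genes. The mature forms of those whose hosts are described below are shown, with the seed (bases 2 to 8), which pairs with target messages, in capitals.
hsa-miR-29c-3p: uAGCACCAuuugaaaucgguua
hsa-miR-29b-3p: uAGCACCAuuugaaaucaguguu
hsa-miR-146a-5p: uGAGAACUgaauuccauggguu
hsa-miR-155-5p: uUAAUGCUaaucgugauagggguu
hsa-let-7c-5p: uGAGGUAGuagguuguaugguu
hsa-let-7i-5p: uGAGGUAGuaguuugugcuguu
hsa-miR-34a-5p: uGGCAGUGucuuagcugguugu
hsa-miR-9-5p: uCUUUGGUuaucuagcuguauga
The microRNAs miR-29c-3p and miR-29b-3p, both within C1orf132, share the seed AGCACCA. Another seed, GAGGUAG, is shared by let-7c-5p, within MIR99AHG, and let-7i-5p, within AC048341.2. The other 4 lie within MIR3142HG (miR-146a), MIR155HG (miR-155), MIR34AHG (miR-34a) and LINC00461 (miR-9). Poly(A)+ libraries measure the host RNA and not the mature microRNA, which was not measured.

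The 229 genes reported by value took up 0.143% to 0.2% of all counts in a library. Their summed level was 1430 to 1790 CPM in the 8 treated libraries, against 2000 and 1940 CPM in the untreated OCI-LY3 libraries and 1940 CPM in both untreated VAL libraries. Of all 231 genes, the floor was reached in all 6 groups by 49, in exactly 1 group by 49, in groups of OCI-LY3 alone by 49, in groups of VAL alone by 74, in treated groups alone by 45 and in untreated groups alone by 42. Clone-based names were carried by 115 genes, LINC numbers by 61 and the suffix AS by 19. The highest mean over the 12 poly(A)+ libraries was that of EBLN3P, a locus derived from an ancient bornavirus gene, at 173 CPM. It was ahead of NEAT1 at 101, NORAD at 82.1 and MALAT1 at 54.4 CPM. Per kilobase of exon the order was another one, with LINC01857 at 31.2 CPM per kb, EBLN3P at 26.7, NORAD at 15.4, MALAT1 at 6.16 and NEAT1 at 4.43, and a median of 1.58 over the 229 genes with a known exon length.

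The main comparison asked which lincRNAs fell and which rose when CDK9 was inhibited. Genes were called in both directions in each line, and which direction held more depended on the genes counted and on the scaling. In OCI-LY3 59 genes were called higher and 52 lower at 3 h, beside 17.8% and 24.3% of all 16374 genes tested, and 74 and 70 at 6 h, beside 28.1% and 33.4%. In VAL 87 were higher and 66 lower at 3 h, beside 29.6% and 25.1% of all, and 97 and 63 at 6 h, beside 34.0% and 32.2%. Calls are at an adjusted p under 0.05 by edgeR over all genes. The 127 genes that reached the floor in untreated OCI-LY3 had 21 higher and 48 lower at 3 h and 24 and 60 at 6 h in that line. For the 145 genes that reached it in untreated VAL the counts were 44 higher and 58 lower at 3 h and 48 and 56 at 6 h in that line. Changes of at least 2-fold were called higher for 31 and lower for 25 of the 231 genes in OCI-LY3 at 3 h, beside 6.64% and 14.2% of all genes tested, and for 47 and 43 at 6 h, beside 15.3% and 21.8%. In VAL they were called for 46 and 41 at 3 h, beside 11.9% and 15.9%, and for 62 and 48 at 6 h, beside 21.4% and 22.1%. Among the 133 genes whose mean over all 12 libraries reached the floor, the counts higher and lower were 39 and 33 in OCI-LY3 at 3 h, 44 and 43 at 6 h, 56 and 37 in VAL at 3 h, and 60 and 37 at 6 h. As shares, 32.0% of the 231 were higher and 30.3% lower in OCI-LY3 at 6 h, against 25.8% and 45.3% of 10258 protein-coding genes at the same floor and 31.0% and 32.2% of 239 antisense genes. Of the 127 genes at the floor in untreated OCI-LY3, 18.9% were higher and 47.2% lower there. In VAL at 6 h 42.0% of the 231 were higher and 27.3% lower, against 30.8% and 42.9% of the protein-coding genes and 43.5% and 31.8% of the antisense genes. Of the 145 at the floor in untreated VAL, 33.1% were higher and 38.6% lower there. These shares are set side by side and their difference was not tested.

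The median log2 change of the genes was 0.06 in OCI-LY3 at 3 h, then 0.01 at 6 h, and 0.27 and 0.30 in VAL, beside medians over all genes tested of 0.00, -0.01, 0.16 and 0.10. With genes that had no counts in a group placed at the bound that 3 counts allow, the medians of the 229 reported genes were 0.00, 0.00, 0.23 and 0.29. RNA-seq without added standards gives each gene relative to the rest, and the split between higher and lower turned with the scaling. By library totals alone the counts higher and lower were 43 and 63 in OCI-LY3 at 3 h, 46 and 85 at 6 h, 43 and 75 in VAL at 3 h, and 56 and 85 at 6 h. Scaled so that the 13 mitochondrially encoded mRNAs, which another polymerase makes, stayed level, they were 13 and 146, 22 and 164, 14 and 163, and 14 and 185 in the same order. That scaling moved the median of all genes to -1.09 and -1.55 in OCI-LY3 and to -1.23 and -2.06 in VAL, and scaling by library totals to -0.17, -0.37, -0.18 and -0.36. In VAL at 3 h the number called higher was 44 without the first and 46 without the second 0 h library, and in OCI-LY3 at 3 h 37 without the first 3 h library.

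The lines share no libraries, and their calls were set side by side. Of the genes higher at 6 h, 55 were higher in both lines, which is 74.3% of those higher in OCI-LY3 and 56.7% of those higher in VAL, beside 73.5% and 60.8% over all genes tested. Of those lower at 6 h, 45 were lower in both, or 64.3% of the OCI-LY3 and 71.4% of the VAL genes, beside 71.1% and 73.9% over all genes. At 3 h 46 were higher in both (78.0% and 52.9%, beside 78.1% and 47.0% over all genes) and 43 lower in both (82.7% and 65.2%, beside 74.1% and 71.7%). The difference of these shares was not tested. At 6 h 8 genes were lower in OCI-LY3 and higher in VAL, and 2 were higher in OCI-LY3 and lower in VAL. These 2, named after their values were seen, were PAXIP1-AS1 and HCG11, of which HCG11 stood at 0.0 to 0.076 CPM in all 6 OCI-LY3 libraries, so that its value in that line is no bound.

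**Figure D1:**
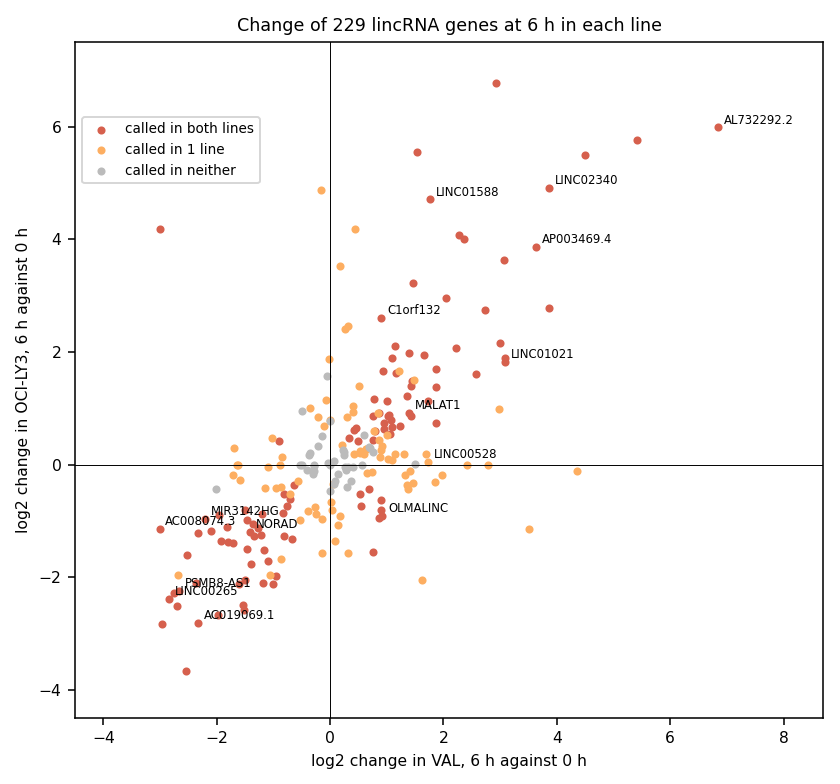
Log2 change at 6 h relative to 0 h in VAL (x axis) and in OCI-LY3 (y axis) under the default scaling, 1 point per gene for 229 genes, coloured by whether it was called at an adjusted p under 0.05 in both lines, in 1 line or in neither. A single gene, AC011816.2, lies outside the axes. Genes called higher in both lines (55) lie in the upper right and genes called lower in both (45) in the lower left, and points with no counts at 0 h in a line are fitted values that depend on the prior count.

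**Figure D2:**
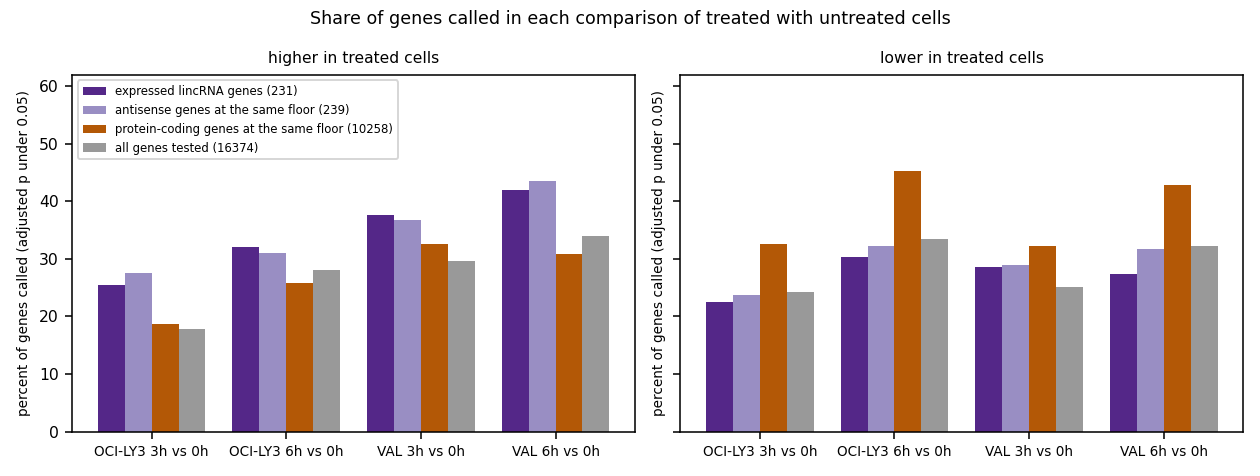
Percent of genes called higher and lower in each comparison with 0 h, for the 231 lincRNA genes, the 10258 protein-coding and 239 antisense genes at the same floor, and all 16374 genes tested. In OCI-LY3 at 6 h 30.3% of the lincRNA genes and 45.3% of the protein-coding genes were called lower. Of the 127 lincRNA genes at the floor in untreated OCI-LY3, which are not drawn apart, 47.2% were called lower there.

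Of 9 RNAs listed as abundant or as parts of nuclear bodies, 3 were among the genes. Under the default scaling MALAT1 rose and NORAD fell at both times in both lines. NEAT1 rose as well, except in OCI-LY3 at 6 h, where its change did not pass. Poly(A)+ libraries select polyadenylated RNA, so these levels and changes give no measure of any form of these RNAs without a poly(A) tail. In the text below, values per library are CPM scaled by TMM, the factors that the test also used, since these differ between treated (0.8306 to 1.007) and untreated libraries (1.115 to 1.244). MALAT1, an RNA of nuclear speckles, lies at chromosome 11, 65497688 to 65506516 (GRCh38). In OCI-LY3 it had 16.6 and 15.9 scaled CPM at 0 h, 27.2 and 25.8 at 3 h, then 32.2 and 28.7 at 6 h. The VAL libraries had 50.7 and 49.1 at 0 h, 93.9 and 65.2 at 3 h, then 154 and 107 at 6 h. Every treated library was above both untreated libraries of its line, and the 2 treated VAL libraries of a time lay far apart. The log2 change at 6 h was 0.91 ± 0.194 (SE) in OCI-LY3 (adjusted p = 0.00184) and 1.39 ± 0.19 in VAL (adjusted p = 7.17e-05), but by mitochondrial scaling it was -0.65 in OCI-LY3 and -0.82 in VAL.

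NEAT1, the RNA core of paraspeckles, had 99.1 and 85.4 scaled CPM at 0 h, 162 and 146 at 3 h, then 112 and 108 at 6 h in OCI-LY3. VAL had 57.3 and 59.7 at 0 h, 108 and 70.4 at 3 h, then 126 and 92.8 at 6 h. In OCI-LY3 it was highest at 3 h, with a change of 0.74 ± 0.19 (adjusted p = 0.00969), and at 6 h the change of 0.26 ± 0.19 did not pass (adjusted p = 0.266). In VAL it rose by 0.61 ± 0.191 at 3 h (adjusted p = 0.0196) and 0.90 ± 0.192 at 6 h (adjusted p = 0.00164). By mitochondrial scaling each of these rises was negative, at -0.40 in OCI-LY3 at 3 h and -0.85 and -1.30 in VAL. The 3 h rise in VAL passed in 6 of 12 fits that each left out 1 library, and that of MALAT1 in 9 of 12.

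NORAD, a cytoplasmic RNA that binds Pumilio proteins and is known from the response to DNA damage, was the most abundant gene that fell at both times in both lines. It is a single block of 5339 bases at chromosome 20, 36045622 to 36050960, with the promoter shown above. In OCI-LY3 it had 135 and 131 scaled CPM at 0 h, 39.5 and 37.0 at 3 h, then 61.9 and 54.1 at 6 h. For VAL the values were 128 in both libraries at 0 h, 52.2 and 61.4 at 3 h, then 44.3 and 52.5 at 6 h. All 8 treated libraries were below all 4 untreated ones, with changes of -1.80 ± 0.123 (adjusted p = 1.2e-06) and -1.20 ± 0.121 (9.02e-06) in OCI-LY3 and of -1.18 ± 0.121 (1.62e-05) and -1.41 ± 0.122 (2.3e-06) at these times in VAL. Of 14 listed genes for proteins of nuclear bodies, which are not lincRNAs, 4 rose and 6 fell in OCI-LY3 and 5 rose and 6 fell in VAL at 6 h under the default scaling, and by mitochondrial scaling 0 rose and 13 and 14 fell. Among protein-coding genes at the floor 25.8% rose and 45.3% fell in OCI-LY3 by default, and 30.8% and 42.9% in VAL.

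EBLN3P had the highest level of these genes. It had 206 in both libraries at 0 h, 125 and 145 at 3 h, then 208 and 190 at 6 h in OCI-LY3 on the same scale. In VAL it lay within 145 to 190 in all 6 libraries, with 149 and 148 at 0 h. It fell in OCI-LY3 at 3 h by 0.60 ± 0.131 (adjusted p = 0.00361), and neither its 6 h change there (-0.05 ± 0.13, adjusted p = 0.773) nor that in VAL (0.26 ± 0.13, adjusted p = 0.0981) passed. LINC01184, also among the 10 highest, fell at 6 h by 0.74 ± 0.114 in OCI-LY3 (adjusted p = 0.000205) and by 0.76 ± 0.111 in VAL (adjusted p = 0.000118).

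**Figure D3:**
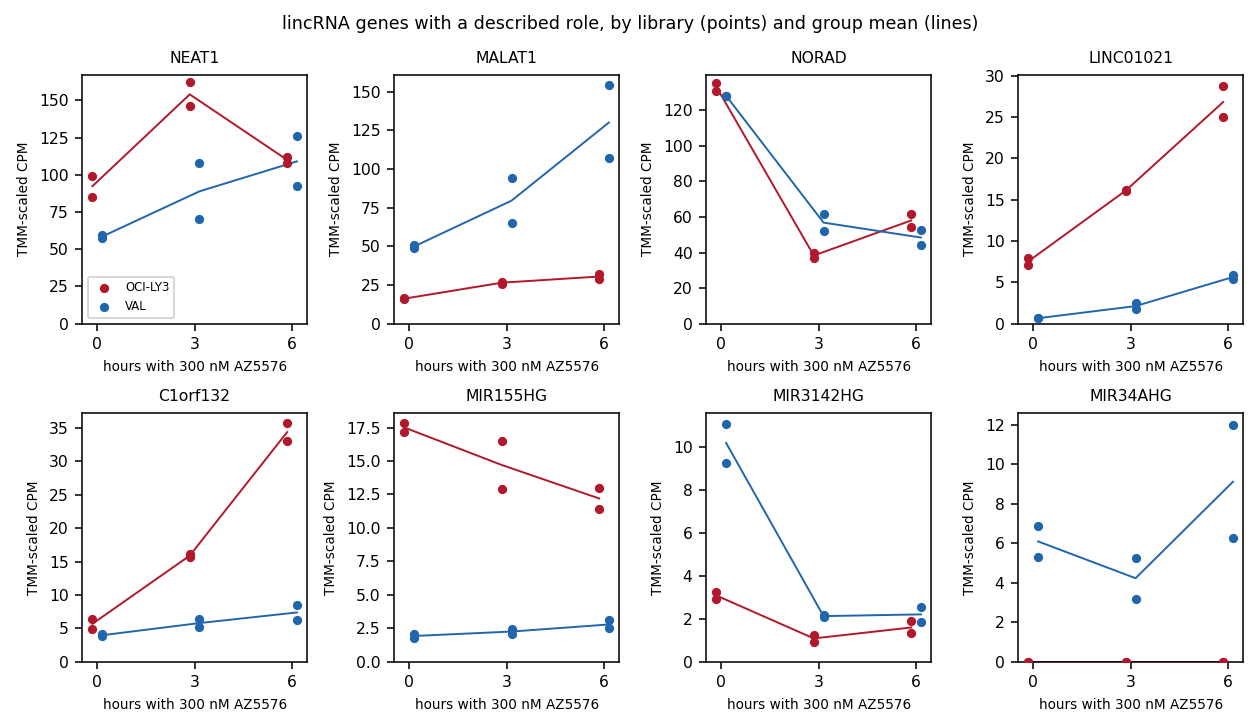
TMM-scaled CPM (linear y axis from 0) of 8 genes of the role lists against hours with AZ5576 (x axis), by line, with 1 point per library and lines through the group means. NORAD lies at 37.0 to 61.9 in the treated libraries and at 128 to 135 in the untreated ones, while LINC01021 and C1orf132 rise with time in both lines under this scaling.

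Of 11 listed RNAs of the p53 and DNA damage response, 4 were among the genes. The p53 target LINC01021 (PURPL), which lowers p53 levels in human cells, rose most in both lines. It had 7.98 and 7.11 scaled CPM at 0 h, 16.0 and 16.2 at 3 h, then 28.7 and 25.0 at 6 h in OCI-LY3. In VAL it had 0.643 and 0.688 at 0 h, 2.52 and 1.75 at 3 h, then 5.9 and 5.37 at 6 h. The groups did not overlap within either line, with a log2 change at 6 h of 1.83 ± 0.153 in OCI-LY3 (adjusted p = 2.12e-06) and 3.08 ± 0.202 in VAL (adjusted p = 3.4e-07). By mitochondrial scaling these were 0.27 and 0.90, and the 3 h change in OCI-LY3 (1.09 by default) was -0.03. TP53TG1, another transcript named as a p53 target, rose by 0.87 ± 0.257 in VAL at 6 h (adjusted p = 0.0116), which was -1.31 by mitochondrial scaling, and did not pass in OCI-LY3 (0.43 ± 0.357, adjusted p = 0.316). MIR34AHG, host of miR-34a, had no counts in any OCI-LY3 library. The VAL libraries had 6.24 and 12 scaled CPM at 6 h, against 5.31 and 6.88 at 0 h, a change of 0.57 ± 0.341 that did not pass (adjusted p = 0.173).

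Among microRNA hosts C1orf132 rose in both lines under the default scaling, and is the host of miR-29b-2 and miR-29c, which in other cells target messages of collagens and survival factors. It spans 77579 bases at chromosome 1, 207801518 to 207879096. By its GENCODE start, which is not the start of the promoter shown above, it begins within 10 kb downstream of CD34 on its strand. Among coding genes at the floor the nearest is CD46, at 6005 bases on the opposite strand. In OCI-LY3 it had 6.47 and 4.9 scaled CPM at 0 h, 16.1 and 15.7 at 3 h, then 35.7 and 33.1 at 6 h. VAL had 4.09 and 3.87 at 0 h, 6.34 and 5.25 at 3 h, then 8.55 and 6.23 at 6 h. The levels rose at each time in OCI-LY3 without overlap. The change at 6 h was 2.60 ± 0.179 in OCI-LY3 (adjusted p = 5.88e-07) and 0.90 ± 0.187 in VAL (adjusted p = 0.00142), and the difference between lines of 1.70 ± 0.255 passed (adjusted p = 0.00116). By mitochondrial scaling the change was 1.04 in OCI-LY3 and -1.30 in VAL, and that at 3 h in VAL, 0.54 by default and passing in 6 of 12 fits that left out 1 library, was -0.88.

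MIR3142HG, host of miR-146a, a microRNA known to damp NF-κB signalling, fell in both lines. It had 3.27 and 2.91 scaled CPM at 0 h, 1.24 and 0.946 at 3 h, then 1.88 and 1.32 at 6 h in OCI-LY3. For VAL the values were 9.28 and 11.1 at 0 h, 2.19 and 2.07 at 3 h, then 1.85 and 2.57 at 6 h. The changes were -1.5 ± 0.239 (adjusted p = 0.000519) and -0.96 ± 0.236 (0.00452) in OCI-LY3 and -2.25 ± 0.211 (8.38e-06) and -2.21 ± 0.215 (5.27e-06) in VAL at 3 h and 6 h. The 6 h call in OCI-LY3 was lost without the second 6 h library (-0.73). MIR155HG, host of miR-155, a microRNA of activated B cells, had 17.8 and 17.2 scaled CPM at 0 h, 16.5 and 12.9 at 3 h, then 13.0 and 11.4 at 6 h in OCI-LY3. In VAL it had 2.07 and 1.78 at 0 h, 2.06 and 2.47 at 3 h, then 2.5 and 3.09 at 6 h. At 6 h it fell by 0.53 ± 0.159 in OCI-LY3 (adjusted p = 0.0138) and rose by 0.53 ± 0.199 in VAL (adjusted p = 0.0367), which was -1.64 by mitochondrial scaling and passed in 4 of 12 fits that left out 1 library.

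MIR193BHG, host of miR-193b and miR-365a, had 6.68 and 5.8 scaled CPM at 6 h, against 2.76 and 2.85 at 0 h in OCI-LY3, and 0.0951 to 0.199 in all VAL libraries. It rose by 1.15 ± 0.179 in OCI-LY3 at 6 h (adjusted p = 0.000202), but by mitochondrial scaling it was at -0.40. MIR99AHG, host of let-7c, miR-99a and miR-125b, had 15.4 and 15.2 scaled CPM at 6 h, against 8.9 and 8.78 at 0 h in OCI-LY3, and no counts in VAL but for the trace given above. It rose by 0.79 ± 0.229 (adjusted p = 0.0146) in OCI-LY3 at 6 h, a call kept in 8 of 12 fits that left out 1 library and at -0.77 by mitochondrial scaling. Of the 10 messages of microRNA processing listed, which are not lincRNAs, 1 rose and 5 fell in OCI-LY3 and 5 rose and 3 fell in VAL at 6 h, while by mitochondrial scaling all 10 fell in both lines. Among protein-coding genes at the floor 25.8% rose and 45.3% fell in OCI-LY3 by default, and 30.8% and 42.9% in VAL. DGCR8, which holds Drosha to its substrate, fell by 0.81 in OCI-LY3 and by 0.45 in VAL. FTX, an RNA of the X inactivation centre that holds 4 of the 22 microRNA genes, rose in VAL by 0.76 ± 0.152 at 3 h (adjusted p = 0.00167) and 0.64 ± 0.154 at 6 h (adjusted p = 0.00368), which were -0.67 and -1.55 by mitochondrial scaling, and the 6 h call was lost without the first 0 h library (0.55). In OCI-LY3 its change at 6 h was 0.28 ± 0.163 (adjusted p = 0.164).

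Of 29 listed RNAs of B cells and immunity 10 were among the genes. At 6 h 2 rose and 4 fell in OCI-LY3 and 4 rose and 1 fell in VAL. Over all genes tested 28.1% were higher and 33.4% lower in OCI-LY3, and 34.0% and 32.2% in VAL. LINC00926, an RNA of B cells, is at chromosome 15, 57300365 to 57307769, 1084 bases downstream of TCF12. It had 39.6 and 36.8 scaled CPM at 0 h, 64.5 and 54.0 at 3 h and 63.8 in both libraries at 6 h in OCI-LY3. The VAL libraries had 6.66 and 7.21 at 0 h, 16.9 and 22.4 at 3 h, then 22.4 and 28.4 at 6 h. All treated libraries lay above the untreated ones of the same line, with changes at 6 h of 0.74 ± 0.157 (adjusted p = 0.00175) in OCI-LY3 and 1.87 ± 0.169 (adjusted p = 3.07e-06) in VAL, which were -0.82 and -0.30 by mitochondrial scaling. LINC01857 rose in both lines, by 0.66 ± 0.117 in OCI-LY3 (adjusted p = 0.000513) and 1.10 ± 0.117 in VAL (adjusted p = 1.07e-05) at 6 h, which were -0.90 and -1.08 by mitochondrial scaling. LINC01215 had 29.2 and 26.8 scaled CPM at 6 h, against 48.3 and 49.6 at 0 h in OCI-LY3, a fall by 0.81 ± 0.14 (adjusted p = 0.000449). VAL had 46.7 and 39.2 at 6 h, against 41.5 and 42.8 at 0 h, with a change of 0.03 ± 0.138 (adjusted p = 0.876).

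LINC00158 fell by 0.97 ± 0.183 in OCI-LY3 at 6 h (adjusted p = 0.000805) and stood at 0.151 to 0.523 scaled CPM in VAL. LINC00494 rose by 1.02 ± 0.182 in VAL at 6 h (adjusted p = 0.000496), which was -1.18 by mitochondrial scaling, and was at 0.10 ± 0.199 in OCI-LY3 (adjusted p = 0.677). LINC00494 was under the floor in both untreated lines, so its rise in VAL was part of its selection. FAM30A, an RNA of the B lineage, had 8.41 and 8.88 scaled CPM at 6 h, against 12.5 and 10.8 at 0 h in OCI-LY3, a change of -0.43 ± 0.251 that did not pass (adjusted p = 0.166), and LINC02397, at 3.01 to 3.71 scaled CPM in the VAL libraries of 0 h and 6 h, was at 0.07 ± 0.208 there at 6 h (adjusted p = 0.774).

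Of 35 listed RNAs known from cancer 8 were among the genes, of which at 6 h 2 rose and 2 fell in OCI-LY3 and 5 rose and 1 fell in VAL. Over all genes tested 28.1% were higher and 33.4% lower in OCI-LY3, and 34.0% and 32.2% in VAL. PVT1, the neighbour of MYC on chromosome 8, had 14.7 and 15.3 scaled CPM at 0 h, 17.0 and 15.4 at 3 h, then 16.5 and 17.7 at 6 h in OCI-LY3, a change at 6 h of 0.19 ± 0.116 (adjusted p = 0.174). For VAL the values were 43.2 and 42.0 at 0 h, 73.7 and 63 at 3 h, then 110 and 102 at 6 h, and it rose by 1.31 ± 0.112 (adjusted p = 1.97e-06), which was -0.87 by mitochondrial scaling. The VAL libraries of the 3 times did not overlap, while those of OCI-LY3 lay within 14.7 to 17.7. LINC00665, known as a raised RNA of several tumours, fell in both lines at 6 h, by 0.62 ± 0.126 in OCI-LY3 (adjusted p = 0.00129) and 0.71 ± 0.128 in VAL (adjusted p = 0.000537). LINC00467 rose in both, by 0.73 ± 0.203 (adjusted p = 0.00907) and 0.95 ± 0.167 (adjusted p = 0.000452), and both were negative by mitochondrial scaling (-0.83 and -1.22). EPB41L4A-AS1 had 26.3 and 29.4 scaled CPM at 6 h, against 37.1 and 38.0 at 0 h in OCI-LY3, and 34.2 and 40.4 at 6 h, against 23.8 and 22.9 at 0 h in VAL. It fell by 0.43 ± 0.152 in OCI-LY3 (adjusted p = 0.0292, kept in 5 of 12 fits that left out 1 library) and rose by 0.68 ± 0.152 in VAL (adjusted p = 0.00235), where mitochondrial scaling gave -1.49.

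LINC00461, which holds the miR-9-2 gene and is known from brain, had no counts in untreated OCI-LY3, 6 and 4 counts at 3 h, then 9 and 10 counts at 6 h, at least 9.73-fold higher at 6 h (over a group floor of 3 counts). In VAL it had 0.928 and 0.79 scaled CPM at 0 h, 2.48 and 1.35 at 3 h, then 6.85 and 6.23 at 6 h. It rose there by 2.92 ± 0.281 at 6 h (adjusted p = 8.96e-06) and by 0.74 with mitochondrial scaling. CRNDE, known as raised in colorectal tumours, had 24.3 and 23 scaled CPM at 6 h, against 14 and 13.8 at 0 h in OCI-LY3, with a change of 0.77 ± 0.309 that did not pass (adjusted p = 0.0554). CYTOR did not pass in either line at 6 h (-0.09 ± 0.188 in OCI-LY3, adjusted p = 0.718, and -0.41 ± 0.294 in VAL, adjusted p = 0.24). LINC01089 rose by 0.52 ± 0.175 in VAL at 6 h (adjusted p = 0.0215, kept in 7 of 12 fits that left out 1 library), which was -1.67 by mitochondrial scaling, and was at 0.24 ± 0.189 in OCI-LY3 (adjusted p = 0.298).

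Outside these roles, AC019069.1 and LINC00265 had the largest falls at 6 h in OCI-LY3 among genes that averaged 5 CPM or more in the 6 libraries of the line and whose groups did not overlap, and AC008074.3 and PSMB8-AS1 in VAL. Below that level were genes that fell by as much or more, such as AC007381.1 (-3.67) in OCI-LY3 and SCAMP1-AS1 (-2.84 in OCI-LY3 and -2.96 in VAL). In OCI-LY3 AC007381.1 had only 1.27 and 1.78 scaled CPM at 0 h and 0.0495 and 0.176 at 6 h. AC019069.1, a block of 1333 bases that overlaps the hexokinase gene HK2 on the opposite strand, had 13.8 and 12.8 scaled CPM at 0 h, 3.79 and 3.29 at 3 h, then 1.53 and 2.24 at 6 h in OCI-LY3. The VAL libraries had 7.59 and 7.28 at 0 h, 1.18 and 1.55 at 3 h, then 1.36 and 1.62 at 6 h. The change at 6 h was -2.81 ± 0.198 (adjusted p = 6.59e-07) in OCI-LY3 and -2.33 ± 0.204 (adjusted p = 2.52e-06) in VAL. AC008074.3, whose start lies 212 bases from that of AFTPH on the opposite strand, had 1.24 and 0.923 scaled CPM at 6 h, against 2.29 and 2.48 at 0 h in OCI-LY3. VAL had 1.1 and 1.52 at 6 h, against 10.8 and 10.1 at 0 h, and it fell by 1.15 ± 0.221 in OCI-LY3 (adjusted p = 0.000907) and by 3.01 ± 0.199 in VAL (adjusted p = 3.59e-07). PSMB8-AS1, which shares 56.8% of its exon bases with the proteasome gene PSMB8, so that reads without strand cannot be assigned to either with certainty, fell by 2.24 ± 0.208 in OCI-LY3 and by 2.67 ± 0.19 in VAL at 6 h (adjusted p = 4.8e-06 and 5.83e-07), while PSMB8 was at 0.54 in OCI-LY3 and 0.05 in VAL.

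LINC00265, of whose 12 exon blocks none overlaps a coding gene at the floor, had 9.81 and 10.4 scaled CPM at 0 h, 2.37 and 4.1 at 3 h, then 2.08 and 1.8 at 6 h in OCI-LY3, and in VAL 7.26 and 7.03 at 0 h, 2.32 and 2.59 at 3 h, then 1.1 and 0.856 at 6 h. It fell at 6 h by 2.38 ± 0.235 in OCI-LY3 (adjusted p = 7.37e-06) and by 2.85 ± 0.258 in VAL (adjusted p = 3.16e-06). Also among the largest falls at 6 h within that limit were C12orf77 (-2.13), AC108206.1 (-2.13), AC093323.1 (-1.61), LINC00667 (-1.57) and AC008124.1 (-1.51) in OCI-LY3, and LINC00339 (-1.82), MIR3681HG (-1.65) and C22orf34 (-1.5) in VAL. The largest rises in OCI-LY3 at 6 h within the same limit, beside those above, were of AC015813.1 (1.99 ± 0.269, adjusted p = 7.53e-05), AC012360.3 (1.90), AC060780.1 (1.48), AC145207.5 (1.39) and AC012236.1 (0.88), of which the last 3 were negative by mitochondrial scaling. At 3 h MAPKAPK5-AS1 fell by 1.37 ± 0.22 in OCI-LY3 (adjusted p = 0.000539) and by 1.53 ± 0.226 in VAL (adjusted p = 0.000215). Also at 3 h LINC00342 rose in OCI-LY3 by 1.58 ± 0.242 (adjusted p = 0.000389) and LINC01963 by 0.81, the second of which turned to -0.34 by mitochondrial scaling and lost its call without the first 3 h or the second 0 h library (0.69 and 0.80).

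In VAL the largest rises at 6 h within that limit were of AP003469.4 (3.64) and LINC00106. Genes at lower levels rose by more, such as AL732292.2 (6.84) and LINC01006 (4.35). LINC01006 stayed under the floor in VAL, with 0.0476 and 0.0509 scaled CPM at 0 h and 0.908 and 1.28 at 6 h. LINC00106, on the X chromosome at 1396427 to 1399402, had 0.854 and 0.677 scaled CPM at 0 h, 2.84 and 2.73 at 3 h, then 3.07 and 3.78 at 6 h in OCI-LY3. For VAL the values were 2.07 and 2.34 at 0 h, 14.6 and 8.0 at 3 h, then 21.3 and 13.8 at 6 h. The change at 6 h was 2.16 ± 0.359 in OCI-LY3 (adjusted p = 0.000329) and 2.99 ± 0.296 in VAL (adjusted p = 6.02e-06), where it stayed positive by mitochondrial scaling (0.78). AL391095.1 rose in both lines by about as much, by 2.07 ± 0.157 in OCI-LY3 (adjusted p = 1.09e-06) and 2.22 ± 0.152 in VAL (adjusted p = 4.55e-07). AP003469.4, LINC00106, AL391095.1 and AL732292.2 were under the floor in both untreated lines and were included only through treated groups. A rise was thus part of their selection, and these values test nothing. Of the others named for VAL at 6 h, RNF139-AS1 rose by 1.87, LINC00528 by 1.72, AC009404.1 by 1.65 and AC060780.1 by 1.44, and all 4 were negative by mitochondrial scaling. AC016168.1 (1.24) and AC006058.1 (1.21), named for VAL at 3 h, were negative by it as well.

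Some genes were under the floor of 3 CPM in both untreated lines and rose by 6 h under the default scaling. The 8 shown in the plot of genes under the floor at 0 h were chosen after their values were seen, and the folds below are ratios of CPM by library totals with an exact 95% interval that covers counting error only. AL732292.2, a block of 430 bases on chromosome 1 (235104180 to 235104609), had 1 and 9 counts at 0 h, 80 and 70 at 3 h, then 153 and 177 at 6 h in OCI-LY3. In VAL it had 3 and 4 counts at 0 h, 71 and 110 at 3 h, then 174 and 298 at 6 h. At 6 h it was 50.7-fold higher (27.2 to 107) in OCI-LY3 and 82.6-fold higher (39.8 to 207) in VAL. It lies 4727 bases downstream of TOMM20, a mitochondrial import receptor gene on the same strand, whose change was -0.01 in OCI-LY3 and -0.20 in VAL at 6 h (adjusted p = 0.993 and 0.286).

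AC011816.2 had 156 counts at 6 h over the group and none at 0 h in OCI-LY3, at least 79.9-fold higher, and 117 and 7 counts at these times in VAL, 20.5-fold higher (9.63 to 52.1). AC007952.4 had 202 counts at 6 h, against 7 at 0 h, in OCI-LY3, 44.4-fold higher (21.1 to 112), and 59 and 2 counts in VAL, a ratio of 36.1 (9.57 to 305). LINC01588 was late, with 21 counts at 0 h, 37 at 3 h, then 280 at 6 h in OCI-LY3, and 180, 145 and 354 in VAL. At 6 h that was 20.5-fold higher (13.1 to 33.6) in OCI-LY3 and 2.41-fold higher (2.01 to 2.9) in VAL. AP003469.4 had 10.7 and 9.4 scaled CPM at 6 h, against 0.756 and 0.61 at 0 h in OCI-LY3, and 11.5 and 22.2 at 6 h, against 1.14 and 1.55 at 0 h in VAL, with log2 changes of 3.87 ± 0.402 and 3.64 ± 0.369. By mitochondrial scaling 9 genes were called higher at 6 h in both lines, namely AL512306.2, LINC00461, AP003469.4, AC007952.4, AC004253.1, AC011816.2, AL732292.2, AC108673.3 and LINC02340. Each of these was under the floor in both untreated lines and was included only through treated groups. A rise was thus part of their selection, and these calls test nothing.

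**Figure D4:**
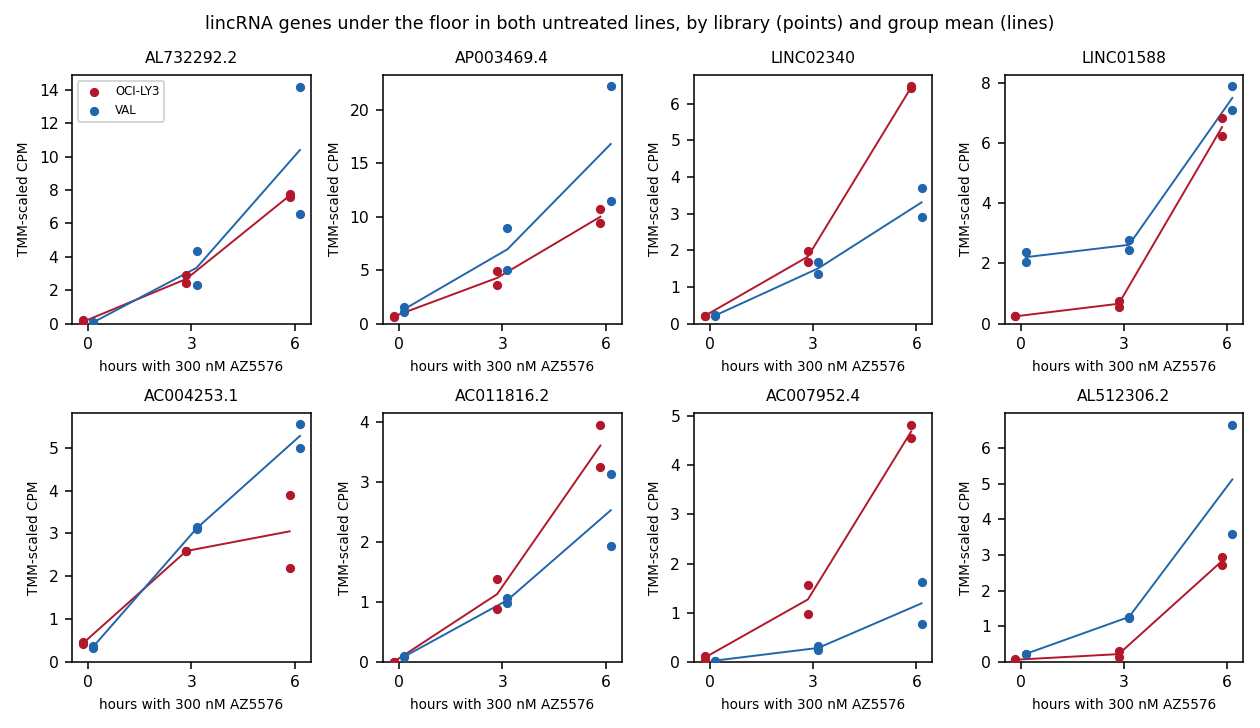
TMM-scaled CPM (linear y axis from 0) of 8 genes that were under the floor before treatment in both lines, against hours with AZ5576 (x axis), with 1 point per library and lines through the group means. The points at 6 h lie above the untreated ones in each panel, as for AL732292.2 with 153 to 298 counts at 6 h and 1 to 9 counts in the untreated libraries, and the 8 were chosen after their values were seen.

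From 3 h to 6 h fewer genes differed. In OCI-LY3 34 genes were higher and 35 lower at 6 h, beside 12% and 16.3% of all genes, and in VAL 28 were higher and 11 lower, beside 7.54% and 15.3%. By library totals these were 28 and 45 in OCI-LY3 and 21 and 21 in VAL, and by mitochondrial scaling 18 and 58 in OCI-LY3 and 7 and 90 in VAL. LINC00909, which overlaps ZNF407 on the opposite strand, fell at 3 h and rose between 3 h and 6 h in both lines. In OCI-LY3 it had 13.3 and 14.9 scaled CPM at 0 h, 6.27 and 6.2 at 3 h, then 17.5 and 13.6 at 6 h. The VAL libraries had 27.1 and 25.3 at 0 h, 8.46 and 9.27 at 3 h, then 12.1 and 17.1 at 6 h. From 3 h to 6 h it rose by 1.32 ± 0.184 in OCI-LY3 (adjusted p = 0.000461) and by 0.71 ± 0.179 in VAL (adjusted p = 0.0152), the second at -0.05 by mitochondrial scaling and not passing without the first 3 h library (0.63) or the second 6 h library (0.44). LINC00847 fell at 3 h in both lines, with 18.5 and 18.0 scaled CPM at 0 h, 4.41 and 3.33 at 3 h, then 5.94 and 5.23 at 6 h in OCI-LY3, and 9.47 and 9.04, 1.9 and 2.55, and 3.06 and 5.71 in VAL. Between 3 h and 6 h it rose by 0.97 ± 0.278 in VAL (adjusted p = 0.0281, kept in 10 of 12 fits that left out 1 library), and was at 0.53 ± 0.259 in OCI-LY3 (adjusted p = 0.157). AC012313.1 rose by 0.91 ± 0.182 over these hours in OCI-LY3 (adjusted p = 0.00366), whereas AC025279.1 fell by 0.74 ± 0.148 (adjusted p = 0.00454) and FLVCR1-AS1 by 0.61 ± 0.171 in VAL (adjusted p = 0.0268, kept in 5 of 12 fits that left out 1 library).

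AC006058.1 was highest at 3 h in VAL but not in OCI-LY3. It had 7.29 and 5.67 scaled CPM at 0 h, 6.42 and 5.89 at 3 h, then 2.47 and 2.59 at 6 h in OCI-LY3. In VAL there were 8.57 and 9.86 at 0 h, 23.8 and 18.7 at 3 h, then 11 and 8.51 at 6 h. It fell between 3 h and 6 h in both lines, by 1.28 ± 0.213 in OCI-LY3 (adjusted p = 0.00128) and 1.12 ± 0.18 in VAL (adjusted p = 0.00126). Counts for 6 h against 3 h moved by over 1.5 times when single libraries were left out. In OCI-LY3 the number higher was 20 without the first 6 h and 19 without the second 3 h library, and the number lower was 13 and 15 without the first and second 3 h and 10 and 16 without the first and second 6 h library. In VAL the number lower was 23 and 5 without the first and second 3 h library and 7 without any 1 of the 4 untreated libraries of either line.

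Before treatment the lines differed at many of these genes. In OCI-LY3 70 were higher and 99 lower than in VAL at 0 h, beside 29.8% and 26.5% of all genes tested. By mitochondrial scaling 41 were higher and 119 lower. CRNDE had 1183 counts in untreated OCI-LY3 and 0 in VAL, at least 341-fold higher, and LINC00868 had 1024 and 0 counts, at least 295-fold higher. MIR99AHG had 754 and 0 counts, at least 217-fold higher. AC104823.1 had 1262 counts in OCI-LY3 and 1 in VAL, a ratio of 1090 (195 to 43100), and FAM30A had 989 and 1, a ratio of 854 (153 to 33800). CASC11, which starts 1467 bases from MYC on the opposite strand, had 37.7 and 37.1 scaled CPM in OCI-LY3 against 0.0476 and 0.0764 in VAL. LINC01694 had 65.9 and 63.5 in OCI-LY3 against 0.595 and 0.535 in VAL. LINC02137 had 10.8 and 10.7 in OCI-LY3 against 0.5 and 0.688 in VAL.

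Higher in VAL were LINC00662, with 0 counts in OCI-LY3 and 770 in VAL (at least 297-fold lower in OCI-LY3), and MIR34AHG, with 0 and 493 (at least 190-fold lower). AL133467.1 had 0.122 and 0.0226 scaled CPM in OCI-LY3 against 17.6 and 18.1 in VAL, and MIR3681HG had 0.195 and 0.135 against 10.6 and 10.5. By smaller steps FLVCR1-AS1 (-2.48), AC092747.4 (-1.98) and LINC01291 (-1.88) were lower in OCI-LY3 on the log2 scale. NORAD was at the same level within its spread, with a difference of 0.05 ± 0.119 (adjusted p = 0.738), and a p above the threshold does not show that the lines are equal. Since a line has 1 lane and 1 line of cells, these differences are between these lines and lanes.

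**Figure D5:**
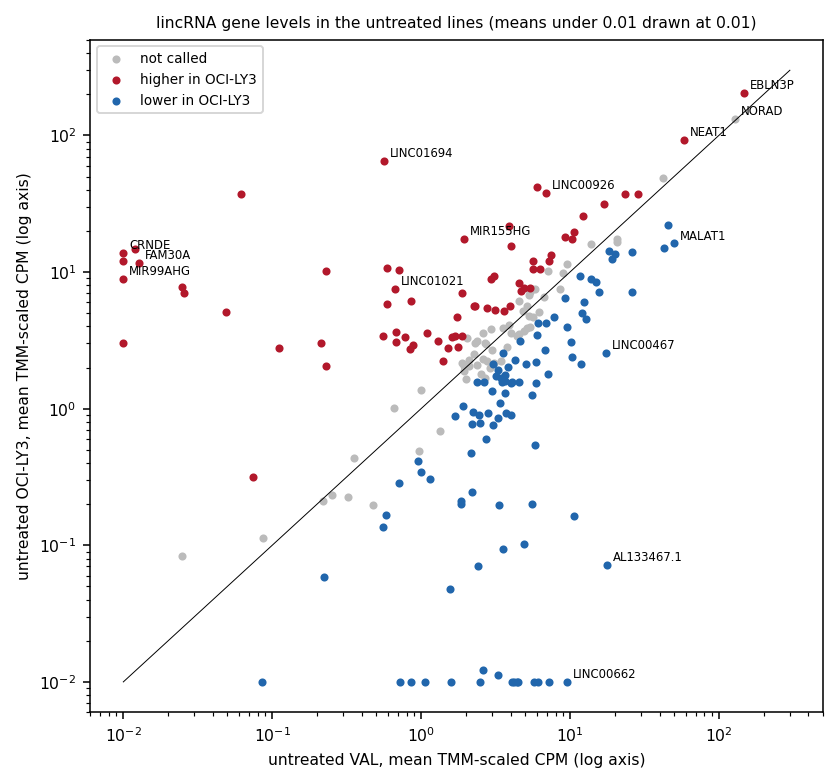
Mean TMM-scaled CPM of 2 untreated libraries in VAL (x axis) and OCI-LY3 (y axis), log scales, 1 point per gene, coloured by the call between lines. Many points lie along an edge, close to 0 in VAL (such as CRNDE) or in OCI-LY3 (such as LINC00662), while NORAD lies near the diagonal.

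The change with treatment was compared between lines directly. For the 3 h change 5 genes were higher and 4 lower in OCI-LY3 than in VAL, beside 2.73% and 3.3% of all genes, and for the 6 h change 21 and 35, beside 12.3% and 14.4%. By unadjusted p under 0.05 the 3 h counts were 26 and 33. By DESeq2's size factors the 3 h counts were 7 and 3, by library totals 12 and 2, and by mitochondrial scaling 4 and 2, and the 6 h counts were 26 and 24 by library totals and 45 and 4 by mitochondrial scaling. PAXIP1-AS1 differed at both times. It had 9.95 and 9.73 scaled CPM at 0 h, 10.2 and 8.65 at 3 h, then 13.6 and 12.8 at 6 h in OCI-LY3. VAL had 8.85 and 9.19 at 0 h, 3.43 and 4.14 at 3 h, then 4.08 and 5.61 at 6 h. The difference of the change was 1.20 ± 0.234 at 3 h (adjusted p = 0.0188, kept in 8 of 12 fits that left out 1 library) and 1.33 ± 0.232 at 6 h (adjusted p = 0.00261). LINC00528 rose at 3 h in both lines, and at 6 h it was above 0 h in VAL, with 6.47 and 7.11, 12.4 and 11, and 7.52 and 6.5 scaled CPM at 0 h, 3 h and 6 h in OCI-LY3 and 5.74 and 4.86, 12.4 and 16.6, and 15.6 and 19.5 in VAL, a difference at 6 h of -1.68 ± 0.257 (adjusted p = 0.00131). OLMALINC moved in opposite directions at 6 h, by -0.92 ± 0.182 in OCI-LY3 and 0.92 ± 0.197 in VAL (difference -1.85 ± 0.268, adjusted p = 0.001) under the default scaling, whereas by mitochondrial scaling it was negative in both (-2.48 and -1.26), with a difference of -1.22 (adjusted p = 0.0339). These 3 h counts ranged from 1 to 26 and from 0 to 22 over the fits that left out 1 library, with 26 and 22 without the second VAL library of 3 h, and at 6 h the number higher was 13 without the first 6 h or the second 0 h library of OCI-LY3 and the number lower 16 to 19 without any 1 untreated library, and 22 and 17 without the first and second 6 h library of OCI-LY3.

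By position in GENCODE release 29, in which 229 of the 231 genes were found, 92 lie more than 10 kb from any protein-coding gene, 47 overlap one, 41 start within 2 kb of one on the opposite strand (divergent), 32 start within 10 kb downstream of one on its strand and 17 are near in other ways. Of the 32 downstream genes 15 rose and 8 fell in OCI-LY3 and 16 rose and 7 fell in VAL at 6 h, with medians of 0.42 and 0.62. Of the 41 divergent genes 11 rose and 15 fell in OCI-LY3 and 15 rose and 13 fell in VAL, with medians of -0.18 and 0.18. The 92 genes lying apart had 25 higher and 26 lower in OCI-LY3 and 36 and 26 in VAL, with medians of 0.00 and 0.20. For the 47 overlapping genes the counts were 14 and 15 in OCI-LY3 and 20 and 14 in VAL, with medians of 0.14 and 0.26, and for the 17 near in other ways 9 and 5 in OCI-LY3 and 10 and 2 in VAL, with medians of 0.68 and 1.35. Over all genes tested 28.1% were higher and 33.4% lower at 6 h in OCI-LY3, and 34.0% and 32.2% in VAL. Of the 231 genes 32.0% were higher and 30.3% lower in OCI-LY3, and 42.0% and 27.3% in VAL. The classes were tested neither against these shares nor against each other. Exon bases are shared with an expressed coding gene by 22 of the genes, and reads there cannot be told apart without strand.

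Neighbours did not always move together. RNF139-AS1 starts 162 bases from RNF139, an ubiquitin ligase gene of the endoplasmic reticulum, on the opposite strand. At 6 h it rose by 1.69 ± 0.255 in OCI-LY3 and 1.87 ± 0.237 in VAL by default scaling (-0.28 in VAL by mitochondrial scaling), while RNF139 fell by 1.93 and 2.38 (adjusted p = 1.75e-05 and 3.09e-06). AF117829.1 starts 20 bases from RIPK2, a kinase gene of innate signalling, which fell by 2.08 in OCI-LY3 and 2.83 in VAL. The lincRNA fell by 0.63 ± 0.25 in OCI-LY3 (adjusted p = 0.0483) and rose by 0.89 ± 0.218 in VAL (adjusted p = 0.00392) under the default scaling. By mitochondrial scaling it was negative in both lines (-2.18 and -1.32), and the fall in OCI-LY3 did not pass by DESeq2's size factors (-0.46, adjusted p = 0.129) nor the rise in VAL by library totals (0.42, adjusted p = 0.181). LINC02340, 21 bases from the ribosomal protein gene RPL21, rose with it, by 4.91 ± 0.25 in OCI-LY3 and 3.87 ± 0.26 in VAL, and RPL21 by 1.19 and 1.40 by default scaling, where mitochondrial scaling gave -0.37 and -0.76 for RPL21. AL512306.2 overlaps LRRN2 and changed by 5.50 ± 0.474 in OCI-LY3 and 4.50 ± 0.368 in VAL, while LRRN2, with a mean of 0.0401 CPM in OCI-LY3 and 0.234 CPM in VAL at 0 h, changed by 5.78 and 4.45.

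The messages of the machinery that degrades nuclear noncoding RNA were read beside these genes. Of 23 listed 22 were tested, of which 3 rose and 12 fell in OCI-LY3 and 2 rose and 14 fell in VAL at 6 h, and by mitochondrial scaling all 22 fell in both lines. Among protein-coding genes at the floor 25.8% rose and 45.3% fell in OCI-LY3 at 6 h, and 30.8% and 42.9% in VAL. By mitochondrial scaling the median change of all genes tested was -1.55 in OCI-LY3 and -2.06 in VAL. The list was not tested against these. RBM7 and ZCCHC8, subunits of the nuclear exosome targeting complex, fell by 2.83 and 1.27 in OCI-LY3 and by 3.69 and 1.39 in VAL. Of the 10 EXOSC genes, which encode subunits of the exosome, 1 rose and 5 fell in OCI-LY3 and 8 fell in VAL under the default scaling. EXOSC5 rose by 0.71 in OCI-LY3 (adjusted p = 0.00606) and was at 0.29 in VAL (adjusted p = 0.184), which were -0.84 and -1.86 by mitochondrial scaling. EXOSC4 fell by 2.34 in OCI-LY3 and 3.78 in VAL, EXOSC3 by 2.41 and 2.56 and EXOSC6 by 1.72 and 1.53 (adjusted p from 3.62e-07 to 3.27e-06). PABPN1, the nuclear poly(A) binding protein, rose by 0.70 in OCI-LY3 and 0.33 in VAL under the default scaling, which were -0.86 and -1.84 by mitochondrial scaling. The part of these messages in the levels of the lincRNAs was not tested.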

How the data were processed

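RNA-seq reads per gene were deposited by the authors as raw counts, whole numbers that had not been normalised. A second deposited table of log2 values was not used here. Per the submitters' processing notes the build was GRCh38 and DESeq2 was used; no aligner or counter is named in the sources used here. The genes and lists were chosen with earlier results of these data known.

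All 12 libraries entered 1 edgeR 4.0.16 model of 6 groups in R 4.3.3 (limma 3.58.1), with 6 residual degrees of freedom, TMM factors and the filterByExpr filter, which kept 16374 genes. Quasi-likelihood p-values were adjusted over them by Benjamini-Hochberg, and the fit was tested on simulated data. Each SE was derived from the test, as the size of the log2 change over the square root of its F statistic. It is not a separately fitted error, and it is unreliable for very small changes and for groups without counts. Tables were made with Python 3.11.15 and pandas 2.3.3. Genes named were those of the role lists, the 10 most abundant, and, among genes averaging at least 5 CPM over the libraries compared whose groups did not overlap, the 8 largest changes each way against 0 h and between lines (5 each for other comparisons). Genes under the floor at 0 h and neighbours were picked with their values in view.

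Other settings tried were DESeq2 1.42.0 and its size factors, library totals, mitochondrial scaling, no filter, each line alone, a replicate block, a 2-fold minimum, a stricter floor and single libraries left out. Replicate numbers were not taken as pairs. No libraries were duplicates, since the chi-square over its degrees of freedom between libraries of a group was 1.66 to 63.8. At 0 h, 3 h and 6 h it was 1.66, 63.8 and 52.1 in VAL and 2.33, 19.8 and 2.95 in OCI-LY3. The model shares 1 estimate of the spread over the groups. An SE or p-value may therefore understate the spread of treated VAL libraries and overstate that of untreated ones. The 95% intervals and the floor of 3 counts cover counting error only. Positions come from GENCODE 29, sequences from RefSeq GRCh38.p14. The motifs of NF-κB and the p53 half-site were added after the data were seen. Some items are not reported here.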

Additional observations from a re-analysis of the deposited data

Results flagged for a closer look

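For the genes below the change with treatment in OCI-LY3 differed from that in VAL, by a test of the difference itself (the interaction of line and time in the edgeR fit, adjusted over all genes). Differences below are log2 changes in OCI-LY3 minus those in VAL, each followed by the change in OCI-LY3 and then in VAL. Explanations were not weighed. By mitochondrial scaling 9 of the 9 positive and 2 of the 15 negative differences at 6 h still passed (LINC00528 and OLMALINC), and at 3 h 1 of the 3 positive (PAXIP1-AS1) and 0 of the 2 negative ones. Of the 13 genes with a negative difference at 6 h and a change above 0 in VAL by default, 11 were below 0 in VAL by it.

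At 3 h EBLN3P differed by -0.78 (-0.60 and 0.17, adjusted p = 0.0363) and passed in 3 of 12 fits that left out 1 library. AC006058.1 differed by -1.28 (-0.07 and 1.21, adjusted p = 0.0199) and passed in 6 of 12. PAXIP1-AS1 differed by 1.20 (-0.06 and -1.26, adjusted p = 0.0188), C22orf34 by 0.96 (-0.63 and -1.59, adjusted p = 0.0192) and AC008074.3 by 1.10 (-1.18 and -2.28, adjusted p = 0.0475). C22orf34, known as a locus of unclear function, thus fell in both lines and by more in VAL.

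Under the default scaling at 6 h some genes were higher in VAL while OCI-LY3 did not pass or fell. PVT1 differed by -1.12 (0.19 and 1.31, adjusted p = 0.000929), LINC00528 by -1.68 (0.04 and 1.72, adjusted p = 0.00131) and LINC00494 by -0.92 (0.10 and 1.02, adjusted p = 0.0282). LINC00926 differed by -1.13 (0.74 and 1.87, adjusted p = 0.00519) and LINC01021 by -1.25 (1.83 and 3.08, adjusted p = 0.00556), both rising in both lines. EPB41L4A-AS1 differed by -1.11 (-0.43 and 0.68, adjusted p = 0.00438), MIR155HG by -1.05 (-0.53 and 0.53, adjusted p = 0.0124) and LINC00969 by -1.70 (-0.81 and 0.90, adjusted p = 0.0024). AF117829.1 differed by -1.52 (-0.63 and 0.89, adjusted p = 0.00763) and OLMALINC by -1.85 (-0.92 and 0.92, adjusted p = 0.001).

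Other genes at 6 h fell in OCI-LY3 by more than in VAL. LINC00667 differed by -1.42 (-1.57 and -0.15, adjusted p = 0.000964), LINC01215 by -0.83 (-0.81 and 0.03, adjusted p = 0.0109), AC006058.1 by -1.44 (-1.35 and 0.09, adjusted p = 0.0042) and AC108206.1 by -1.13 (-2.13 and -1.0, adjusted p = 0.0101). LINC00868 differed by -4.66 (adjusted p = 0.047), a fitted value that depends on the prior count, since VAL had 0 counts at 0 h.

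In the opposite direction at 6 h, C1orf132 differed by 1.70 (2.60 and 0.90, adjusted p = 0.00116), AC012360.3 by 0.80 (1.90 and 1.10, adjusted p = 0.0134) and PAXIP1-AS1 by 1.33 (0.42 and -0.90, adjusted p = 0.00261). MIR3142HG differed by 1.26 (-0.96 and -2.21, adjusted p = 0.0162), AC008074.3 by 1.85 (-1.15 and -3.01, adjusted p = 0.00205), C22orf34 by 0.71 (-0.80 and -1.5, adjusted p = 0.0204), LINC00909 by 0.99 (0.14 and -0.85, adjusted p = 0.0135) and AC005261.2 by 1.05 (-0.04 and -1.09, adjusted p = 0.0163). LINC00461 differed by 3.86 (adjusted p = 0.0483), again a fitted value, since OCI-LY3 had 0 counts at 0 h.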

How the results depend on the processing

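The scaling mattered most. By mitochondrial scaling the counts higher and lower were 13 and 146 in OCI-LY3 at 3 h, 22 and 164 at 6 h, 14 and 163 in VAL at 3 h and 14 and 185 at 6 h. From 3 h to 6 h they were 18 and 58 in OCI-LY3 and 7 and 90 in VAL, between the untreated lines 41 were higher, and for the differences between lines 2 were lower at 3 h and 45 higher and 4 lower at 6 h. Of 167 named values 53 turned negative by it. At 3 h in OCI-LY3 they were AC015813.1 (-0.05), LINC01021 (-0.03), AC012360.3 (-0.17), AC012236.1 (-0.20), AC060780.1 (-0.27), LINC01963 (-0.34), NEAT1 (-0.40), MALAT1 (-0.43), LINC00926 (-0.51), LINC01857 (-0.55), LINC00467 (-0.61), FTX (-0.70), LINC01089 (-0.64) and MIR193BHG (-0.50). At 6 h in OCI-LY3 they were AC060780.1 (-0.08), AC145207.5 (-0.17), MALAT1 (-0.65), AC012236.1 (-0.68), LINC00926 (-0.82), LINC01857 (-0.90), LINC00467 (-0.83), MIR99AHG (-0.77) and MIR193BHG (-0.40). At 3 h in VAL they were AC016168.1 (-0.22), AC006058.1 (-0.23), NEAT1 (-0.85), MALAT1 (-0.77), PVT1 (-0.74), LINC01857 (-0.52), LINC00467 (-0.72), C1orf132 (-0.88), FTX (-0.67), LINC00158 (-0.44), LINC00494 (-0.69) and LINC00461 (-0.29). At 6 h in VAL they were LINC00926 (-0.30), RNF139-AS1 (-0.28), LINC00528 (-0.44), AC009404.1 (-0.54), AC060780.1 (-0.76), NEAT1 (-1.30), MALAT1 (-0.82), PVT1 (-0.87), EPB41L4A-AS1 (-1.49), LINC01857 (-1.08), LINC00467 (-1.22), C1orf132 (-1.30), MIR155HG (-1.64), FTX (-1.55), LINC01089 (-1.67), TP53TG1 (-1.31) and LINC00494 (-1.18), and from 3 h to 6 h in VAL LINC00909 (-0.05). The scaling by itself moves every value down where treated libraries hold a larger share of mitochondrial counts.

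By library totals the count higher was 46 in OCI-LY3 at 6 h, 43 in VAL at 3 h and 56 at 6 h, 21 were lower from 3 h to 6 h in VAL, and the 3 h difference counts were 12 and 2. With a 2-fold minimum, which keeps fewer genes by its construction, the counts were 31 and 25 in OCI-LY3 at 3 h, 47 and 43 at 6 h, 46 and 41 in VAL at 3 h and 62 higher at 6 h, 21 and 13 from 3 h to 6 h in OCI-LY3 and 16 and 6 in VAL, and 45 higher between untreated lines. Among the genes with a mean of 3 CPM over all libraries, also fewer, they were 39 and 33, 44 and 43, 56 and 37, and 60 and 37, then 19 and 22 and 14 higher from 3 h to 6 h in OCI-LY3 and VAL, 46 and 53 between untreated lines, 2 lower for the 3 h difference and 11 and 21 for the 6 h difference. With each line fitted alone 52 were higher in VAL at 3 h, 53 higher from 3 h to 6 h in OCI-LY3, and 13 and 2 in VAL. DESeq2's own test gave 12 and 7 for the 3 h difference, and no filter gave 26 and 9; no count moved by over 1.5 times with DESeq2's size factors. The cause was not tested.

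Leaving out the treated VAL libraries numbered 1 gave 53 and 55 from 3 h to 6 h in OCI-LY3, 43 and 25 in VAL, and 21 and 27 for the 3 h difference. Leaving out those numbered 2 gave 53 and 55 in OCI-LY3, 42 and 39 for the 3 h difference and 46 higher for the 6 h difference. Over fits without 1 library the counts higher and lower ranged from 37 to 65 and 37 to 57 in OCI-LY3 at 3 h, 57 to 77 and 57 to 71 at 6 h, 44 to 89 and 58 to 68 in VAL at 3 h, and 74 to 99 and 59 to 67 at 6 h. From 3 h to 6 h they ranged from 19 to 37 and 10 to 41 in OCI-LY3 and 20 to 29 and 5 to 23 in VAL, between untreated lines from 49 to 73 and 86 to 111, and for the differences from 1 to 26 and 0 to 22 at 3 h and 13 to 31 and 16 to 42 at 6 h.

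Deviations of same-numbered libraries correlated at 0.45 between VAL at 3 h and 6 h, and at -0.0452 to 0.0545 for the other pairs. Treated VAL libraries of the same number thus shared part of their deviation, and the main fit took no account of it. The spread of the 3 h and 6 h changes in VAL is therefore not independent. With a replicate block the 3 h difference counts were 18 and 18, no other count moved by over 1.5 times, and 1 named call was lost. Of the named calls 5 were lost by DESeq2's test and 28 by library totals.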
